A study of Mus musculus with 12 samples.

Results

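The mouse genome holds a cluster of genes for major urinary proteins, named Mup with a number, and their transcripts were followed here by probe set in the livers of female mice with and without estrogen receptor alpha. A probe set was taken when the platform annotation gave it at least 1 symbol made of Mup and a number. The rule found 4 of the 45101 probe sets on the array. They name 3 genes, Mup10 (1430893_at), Mup5 (1426166_at) and Mup3 (1427249_x_at and 1427631_x_at), and 0 of the 4 list several Mup genes. The RefSeq gene table for mouse (GRCm38.p6) holds 22 numbered Mup genes, so the other members of the cluster have no probe set that the annotation given here names. A further 9211 probe sets are not listed in that annotation and are unnamed here.

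All mice were adult females of the B6.129 background, and liver RNA was hybridised to 12 one-colour Affymetrix arrays, 3 for each of 4 groups. The groups were αERKO (KO, Esr1-/-) on a high-fat diet, WT (Esr1+/+) on a high-fat diet, αERKO on normal diet and WT on normal diet. The high-fat diet held 60 kcal% fat and the normal diet was NIH-31, each given for 2 weeks. The αERKO mice lack the receptor throughout the body, so the comparison is of whole animals and is not limited to the hepatocyte, and the diets are compared as a whole.

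Major urinary proteins are small secreted lipocalins. The mouse liver makes them in large amounts, and they pass through the blood and the kidney filter into urine, where they bind and slowly release volatile pheromones. Their genes lie next to each other on chromosome 4 and are so alike in sequence that a probe designed for one can bind transcripts of others. Their liver transcripts are known to be higher in male than in female mice, a difference set by the pulsed male pattern of growth hormone secretion acting through the transcription factor STAT5b. Estrogen receptor alpha, the product of Esr1, acts on this system both in the hypothalamus and pituitary and in the liver.

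The sequences around the starts of Mup10 and Mup3 show how alike these windows are across the cluster. Most of each window is not transcribed, so they do not show which transcripts a probe set binds. They run from 250 bases before to 50 bases after the start in the RefSeq promoter table (GRCm38.p6), which has no entry for Mup5. Both are written 5′ to 3′ on the minus strand, Mup10 at chr4:60582106-60582405 and Mup3 at chr4:62087268-62087567. Capitals mark TATATAA, the TATA box motif, together with any match on the opposite strand that overlaps it.
Mup10: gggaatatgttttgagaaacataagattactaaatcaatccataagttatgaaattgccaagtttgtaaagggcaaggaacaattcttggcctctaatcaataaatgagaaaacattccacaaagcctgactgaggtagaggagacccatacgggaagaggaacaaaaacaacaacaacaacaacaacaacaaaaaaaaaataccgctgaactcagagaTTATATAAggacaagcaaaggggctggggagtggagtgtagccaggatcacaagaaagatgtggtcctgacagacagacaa
Mup3: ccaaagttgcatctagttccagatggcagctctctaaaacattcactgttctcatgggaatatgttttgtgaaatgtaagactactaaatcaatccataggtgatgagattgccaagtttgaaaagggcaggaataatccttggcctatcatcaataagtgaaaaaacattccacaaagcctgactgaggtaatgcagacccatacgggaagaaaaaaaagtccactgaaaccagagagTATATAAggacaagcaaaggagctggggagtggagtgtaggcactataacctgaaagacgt
Aligned end to end with free end gaps, the Mup10 and Mup3 sequences were identical at 87.3% of 245 aligned bases. Against the other Mup starts in the table, identity was 85.8 to 95.6% for Mup10 and 84.5 to 93.9% for Mup3. TATATAA, searched on both strands, was found in 13 of the 14 Mup promoters in the table (92.9%), against 3.46% of all 27025 promoters. On the plus direction of the gene it began 30 bases before the annotated start in Mup10 and 11 bases before it in Mup3. The palindrome TTCNNNGAA, the letters bound by STAT5, was found in 0 of the 14 and in 8.47% of all promoters. The same arms with 4 bases between them were found in 5 of the 14 (35.7%) and in 6.99% of all. AGGTCA, a half-element of nuclear receptors, was found in 1 of the 14 (7.14%) and in 16% of all. The core of the estrogen response element, GGTCA and TGACC with 3 bases between them, was found in 0 of the 14 and in 0.0666% of all. These are matches of letters in a short window and say nothing about binding.

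The targeted gene served as a check of the labels. The signal of Esr1 (1460591_at) was 663 to 885 in αERKO high-fat livers, against 3140 to 3676 in WT high-fat livers. It was 586 to 681 in αERKO normal-diet livers, against 1963 to 3930 in WT normal-diet livers. Which exon its probes match was not looked up. The liver identity was plain in every library, since 8 hepatocyte markers had a mean log2 signal of 15.30 to 15.55 in αERKO high-fat, 15.52 to 15.69 in WT high-fat, 15.43 to 15.65 in αERKO normal and 15.72 to 15.80 in WT normal livers. On normal diet the αERKO range of these markers lay below the WT range, and on the high-fat diet the ranges overlapped slightly. All 8 macrophage markers were on the array. Their mean log2 signal was 9.88 to 10.14 in αERKO high-fat livers, against 10.23 to 10.68 in WT high-fat livers, and 9.84 to 10.39 in αERKO normal livers, against 10.43 to 10.54 in WT normal livers. Their summed signal was 14736 to 17408 in αERKO high-fat livers, against 18903 to 25332 in WT high-fat livers, and 13094 to 19624 in αERKO normal livers, against 19410 to 20581 in WT normal livers. The part of these cells in the Mup values was not tested. In bulk tissue, fewer cells of a type and less RNA per cell cannot be told apart. Some libraries held RNA of other tissues. Averaged over 10 digestive enzyme genes of pancreatic acinar cells, the log2 signal was over 9 in 4 libraries (αERKO normal replicate 1, WT normal replicate 2 and WT high-fat replicates 2 and 3), reaching 13.60 in αERKO normal, 13.89 in WT normal and 12.58 in WT high-fat livers, and was 5.59 to 5.98 in αERKO high-fat livers. The mean of 10 skeletal muscle genes was over 7 in 3 libraries, all αERKO (high-fat replicate 2 and normal replicates 1 and 2), and reached 10.50. The genotype differences of the Mup probe sets are given with and without these libraries. Leaving out those with acinar transcripts left WT high-fat replicate 1 alone in its group. Leaving out those with muscle transcripts left αERKO normal replicate 3 alone in its group. A call lost in these fits cannot be told apart from a loss of libraries.

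Mup10 was the member with a called genotype difference, higher in αERKO livers. On normal diet its signal was 1392.5, 2202.4 and 2218.6 in αERKO livers, against 724.8, 418.0 and 381.3 in WT livers. Every αERKO value lay above every WT value on this diet. The log2 difference was 1.92 ± 0.33 (SE), a 3.80-fold difference with a 95% interval of 1.23 to 2.62 on the log2 scale, and it passed the test in limma (adjusted p = 0.00941, n = 3 and 3). Without the 4 libraries with acinar transcripts the difference was 2.04. Without the 3 with muscle transcripts it was 2.15, with αERKO normal replicate 3 alone in its group. The estimate was not smaller in either fit, and neither fit called it. These smaller fits cannot show whether the RNA of other tissues affected the call. The call was lost when αERKO normal replicate 2 or 3 or WT normal replicate 2 or 3 was left out (differences of 1.75 to 1.82, adjusted p of 0.0501 to 0.0631 in limma). It was also lost without an intensity trend in the limma variance model (adjusted p = 0.0741 with all 12 libraries).

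On the high-fat diet the Mup10 signal was 1003.6, 2566.4 and 2134.5 in αERKO livers, against 916.8, 1098.7 and 663.1 in WT livers. αERKO high-fat replicate 1 lay below the highest WT value and the other two αERKO values lay above all WT values, so the groups overlapped. The log2 difference of 1.0 ± 0.33 had a 95% interval of 0.30 to 1.70 and did not pass (adjusted p = 0.169 in limma). Leaving out αERKO high-fat replicate 1 gave 1.40 ± 0.29 with an adjusted p of 0.0445. Without the libraries with acinar transcripts the difference on this diet was 0.93, with WT high-fat replicate 1 alone in its group. Without those with muscle transcripts it was 0.73. Averaged over both diets, the Mup10 difference was 1.46 ± 0.23 (95% interval 0.97 to 1.96), which is 2.76-fold, with an adjusted p of 0.00234 in limma on 6 libraries a genotype. That averaged difference was called under all 22 alternatives that change this fit, with values of 1.33 to 1.66 and adjusted p of 0.000263 to 0.0384.

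**Figure D1:**
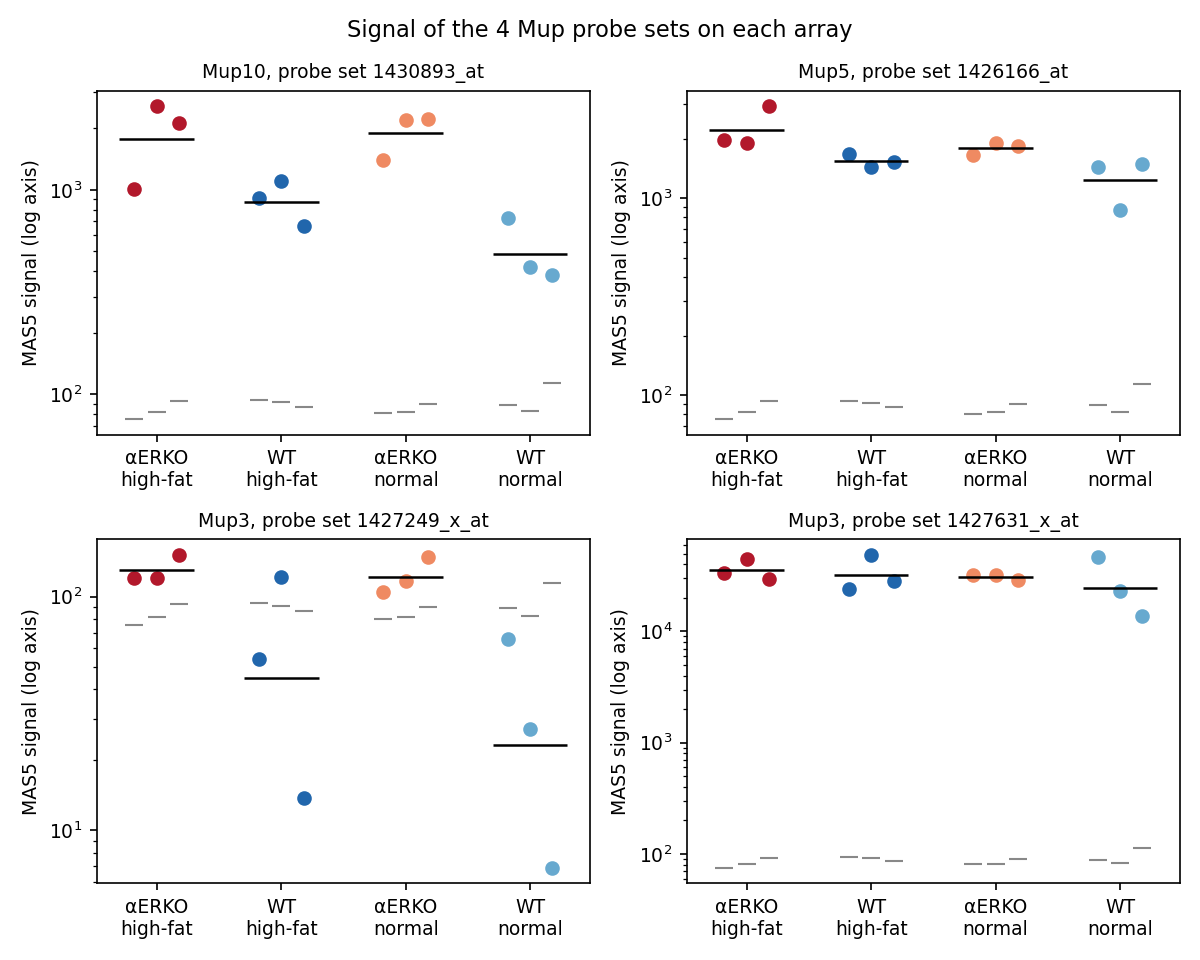
Signal of the 4 Mup probe sets on a log axis in αERKO high-fat, WT high-fat, αERKO normal and WT normal livers. Each dot is 1 array, the black line is the geometric mean of a group and the grey tick is the median signal of that array. For Mup10 on normal diet the αERKO dots lie between 1392.5 and 2218.6, above all WT dots, and both probe sets of Mup3 spread more in WT than in αERKO livers.

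Mup5 had higher values in αERKO livers on both diets and passed no test. On normal diet its signal was 1654.8, 1909.7 and 1838.1 in αERKO livers, against 1450.3, 877.0 and 1501.8 in WT livers. On the high-fat diet it was 1982.5, 1909.0 and 2942.8 in αERKO livers, against 1679.4, 1438.8 and 1528.2 in WT livers. The groups did not overlap on either diet. The log2 difference was 0.53 ± 0.20 on each diet (adjusted p = 0.333 on normal diet and 0.244 on the high-fat diet in limma). Leaving out 1 library gave 0.28 to 0.66 on normal diet, lowest without WT normal replicate 2, and 0.33 to 0.64 on the high-fat diet, lowest without αERKO high-fat replicate 3. Averaged over diets it was 0.53 ± 0.14, a 1.44-fold difference with a 95% interval of 0.23 to 0.83 on the log2 scale and an adjusted p of 0.0602. Without the libraries with acinar transcripts the average was 0.37, and without those with muscle transcripts 0.60. It passed in 4 of 22 alternatives that change this fit, with the lowest adjusted p, 0.0123, after centring each array on its median.

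Mup3 had 2 probe sets, and neither passed a test. The _x_at ending marks probe sets that Affymetrix expected to bind other transcripts as well, so neither can be read as Mup3 alone. 1427249_x_at was dim. Its signal was 104.8, 117.1 and 147.2 in αERKO normal livers, against 66.1, 27.1 and 6.9 in WT normal livers. It was 120.0, 120.8 and 151.4 in αERKO high-fat livers, against 54.3, 121.3 and 13.7 in WT high-fat livers. αERKO values were above all WT values on normal diet, and WT high-fat replicate 2 lay among the αERKO values on the high-fat diet. The probe set exceeded the array median on all 6 αERKO libraries and on 1 WT library. It therefore entered the test only through the αERKO libraries, and its difference supports nothing by its direction. The log2 difference was 1.67 ± 0.54 on normal diet (adjusted p = 0.250 in limma) and 1.15 ± 0.54 on the high-fat diet (adjusted p = 0.366). Averaged over diets it was 1.41 ± 0.38 with a 95% interval of 0.59 to 2.23 and an adjusted p of 0.0639. The average was 1.41 without the libraries with acinar transcripts and 1.55 without those with muscle transcripts. Most of its WT values lie below the middle of the array, where single signals scatter widely on a log scale.

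1427631_x_at, the other Mup3 probe set, was bright in every library and showed no called difference. Its signal was 31811.2, 31746.4 and 29055.6 in αERKO normal livers, against 46443.8, 22842.5 and 13805.4 in WT normal livers. It was 33267.6, 44634.9 and 29574.1 in αERKO high-fat livers, against 23891.5, 48861.4 and 28218.9 in WT high-fat livers. The highest library of all was a WT one, WT high-fat replicate 2, and so was the lowest, WT normal replicate 3. The log2 difference was 0.33 ± 0.34 on normal diet (95% interval -0.39 to 1.05, adjusted p = 0.772 in limma) and 0.14 ± 0.34 on the high-fat diet (-0.58 to 0.86, adjusted p = 0.902). Without the libraries with acinar transcripts the difference was 0.26 on normal diet and 0.56 on the high-fat diet, and without those with muscle transcripts 0.25 and -0.03. The 0.56 rests on WT high-fat replicate 1 alone in its group, and the 0.25 on αERKO normal replicate 3 alone in its group. The interval on normal diet holds 0 and also a difference of 1 log2 unit. The brightest probe set of an array had a signal of 69501 to 96069, and saturation flags were not used here.

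**Figure D2:**
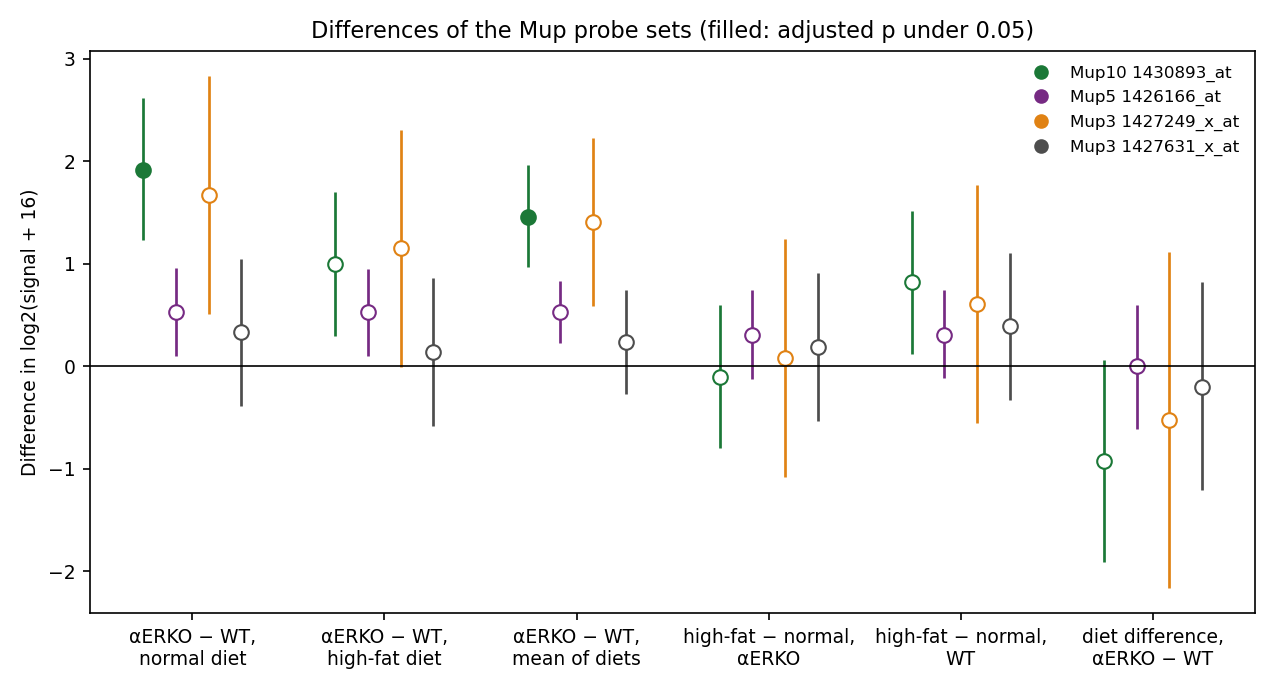
Log2 differences of the 4 Mup probe sets in the 6 comparisons, with 95% intervals from limma, where filled points passed an adjusted p of 0.05. Mup10 passed on normal diet (1.92) and for the mean of both diets (1.46), and no probe set passed for diet or for the interaction.

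Spread within a group differed between the probe sets. For 1427631_x_at the highest signal was 1.09 times the lowest in αERKO normal livers and 1.51 times in αERKO high-fat livers, against 3.36 times in WT normal and 2.05 times in WT high-fat livers. The SD of the log2 signal was 0.17 in αERKO high-fat and 0.22 in αERKO normal livers for 1427249_x_at, against 1.11 in WT high-fat and 0.92 in WT normal livers. On the high-fat diet Mup10 and Mup5 ran the other way, with an SD of 0.71 in αERKO livers and 0.36 in WT livers for Mup10 and of 0.34 in αERKO livers and 0.11 in WT livers for Mup5. On normal diet the SD of Mup10 was 0.38 in αERKO livers and 0.49 in WT livers. That of Mup5 on normal diet was 0.11 in αERKO livers and 0.43 in WT livers. The difference in spread was not tested. Some libraries were at the same end of their group on 3 of the 4 probe sets. WT normal replicate 1 was the highest of its group on 3 of the 4 probe sets and WT normal replicate 3 the lowest on 3. WT high-fat replicate 2, one of the libraries with acinar transcripts, was the highest of its group on 3. αERKO normal replicate 1, which carried both acinar and muscle transcripts, was the lowest of its group on 3. On Mup5, WT normal replicate 3 was the highest of its group and WT high-fat replicate 2 the lowest of its group. On 1427631_x_at, αERKO normal replicate 1 was the highest of its group. The part of these transcripts in the Mup values was not tested beyond leaving the libraries out.

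After removal of the group means, the 2 Mup3 probe sets had a Pearson correlation of 0.73 over the 12 libraries, and Mup10 had one of 0.62 with the dim and 0.56 with the bright Mup3 probe set. Mup5 deviated differently, with correlations of 0.28 with Mup10, 0.01 with 1427249_x_at and -0.20 with 1427631_x_at. These are descriptions over libraries that share arrays and scaling, and probes of near-identical genes can read the same transcripts.

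Set against the array, 1 of 4 Mup probe sets was called for genotype on normal diet, where 0.677% of the 25412 probe sets tested were called, with 84 higher (0.331%) and 88 lower (0.346%). On the high-fat diet 0 of 4 were called in limma, against 1.29% of all, with 0.728% higher and 0.559% lower. At an unadjusted p under 0.05, 2 of 4 Mup probe sets passed on that diet, against 13.9% of all. For the mean of both diets 1 of 4 was called, against 3.21% of all, with 404 higher (1.59%) and 412 lower (1.62%). The split between higher and lower calls depended on scaling. After quantile normalization it was 91 higher and 83 lower on normal diet and 437 higher and 374 lower for the mean of both diets. After median centring it was 76 higher and 50 lower on normal diet and 384 higher and 123 lower for the mean of both diets. That centring moved the median difference of all probe sets on normal diet to 0.09, against -0.05 as deposited.

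Diet moved no Mup probe set past the test in either genotype. In WT livers Mup10 was 0.82 ± 0.33 higher on the high-fat diet on the log2 scale (95% interval 0.12 to 1.52, adjusted p = 0.561 in limma). In αERKO livers its difference was -0.10 ± 0.33 (adjusted p = 0.957). For Mup5 the diet difference was 0.31 ± 0.20 in αERKO livers and 0.31 ± 0.20 in WT livers (adjusted p = 0.687 and 0.782). It was 0.08 ± 0.54 in αERKO livers and 0.61 ± 0.54 in WT livers for 1427249_x_at, and 0.19 ± 0.34 in αERKO livers and 0.39 ± 0.34 in WT livers for 1427631_x_at. In αERKO livers 0 of 4 were called in limma, against 0.181% of all probe sets, 0.118% higher and 0.0630% lower. At an unadjusted p under 0.05 it was 0 of 4 in these livers, against 9.26% of all. In WT livers 1 of 4, Mup10, had an unadjusted p under 0.05 in limma, against 7.54% of all. After adjustment 0 of 4 were called there, against 0.0275% of all, 7 probe sets. Those were 2 higher and 5 lower, and after median centring 1 higher and 1 lower.

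Whether the diet difference depended on genotype was asked with an interaction term, the diet difference in αERKO minus that in WT. For Mup10 it was -0.92 ± 0.46 (95% interval -1.91 to 0.06, adjusted p = 0.894 in limma). The interval holds 0 and a fall of more than 1 log2 unit, so the genotype differences of 1.92 on normal diet and 1.0 on the high-fat diet were not shown to differ. The interaction was -0.52 ± 0.77 for 1427249_x_at, -0.20 ± 0.48 for 1427631_x_at and -0.00 ± 0.28 for Mup5. Of all probe sets 0, or 0%, were called in limma, and 1384 (5.45%) had an unadjusted p under 0.05, none of them a Mup probe set.

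Across the 12 libraries and 21554 tested probe sets with 1 symbol outside the cluster, the pattern of Mup10 was closest to those of Cyp7b1, an oxysterol hydroxylase of bile acid and steroid metabolism (1421075_s_at, Pearson r = 0.94, Spearman rho = 0.92, and 1421074_at, 0.94 and 0.90), Sult2a8, a sulfotransferase (0.94 and 0.88), Mug1, a secreted protease inhibitor of the alpha-macroglobulin family (0.93 and 0.85), and Mtmr6, a phosphoinositide phosphatase (0.93 and 0.85). Mup10 was chosen for this after its values were seen. With group means removed, r was 0.89 and 0.87 for the Cyp7b1 probe sets, 0.76 for Sult2a8, 0.65 for Mug1 and 0.77 for Mtmr6. The most opposed were Fau, which encodes a ribosomal protein fused to a ubiquitin-like protein (r = -0.93, rho = -0.94), Prelid2 (-0.91 and -0.90) and Eci1, an enzyme of fatty acid oxidation (-0.91 and -0.88). For the brightest member, 1427631_x_at, the closest patterns were those of Samhd1, a nucleotide hydrolase (1420272_at, r = 0.93, rho = 0.83), Osbpl9 (0.88 and 0.84), Spred1, an inhibitor of Ras signalling (0.86 and 0.85), Dapk3, a kinase (0.86 and 0.66), and Mterf3, a mitochondrial transcription factor (0.86 and 0.81). Egf, a growth factor, was the most opposed (r = -0.92, rho = -0.87), followed by Misp (-0.89 and -0.80) and Snrpd3, a splicing protein (-0.89 and -0.87). These are the extremes of all the probe sets compared and are given without a test. The probe sets of Samhd1, Egf and Misp were dim. Over the groups their mean log2 signals were 6.36 to 6.82, 6.43 to 6.92 and 6.34 to 6.93, in that order. Those of Mterf3 were 11.20 to 11.46. Those of the other genes named for 1427631_x_at lay between 7.10 and 7.82. Dim signals scatter widely on a log scale, so the r of Samhd1, Egf and Misp cannot show that expressed genes varied together.

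**Figure D3:**
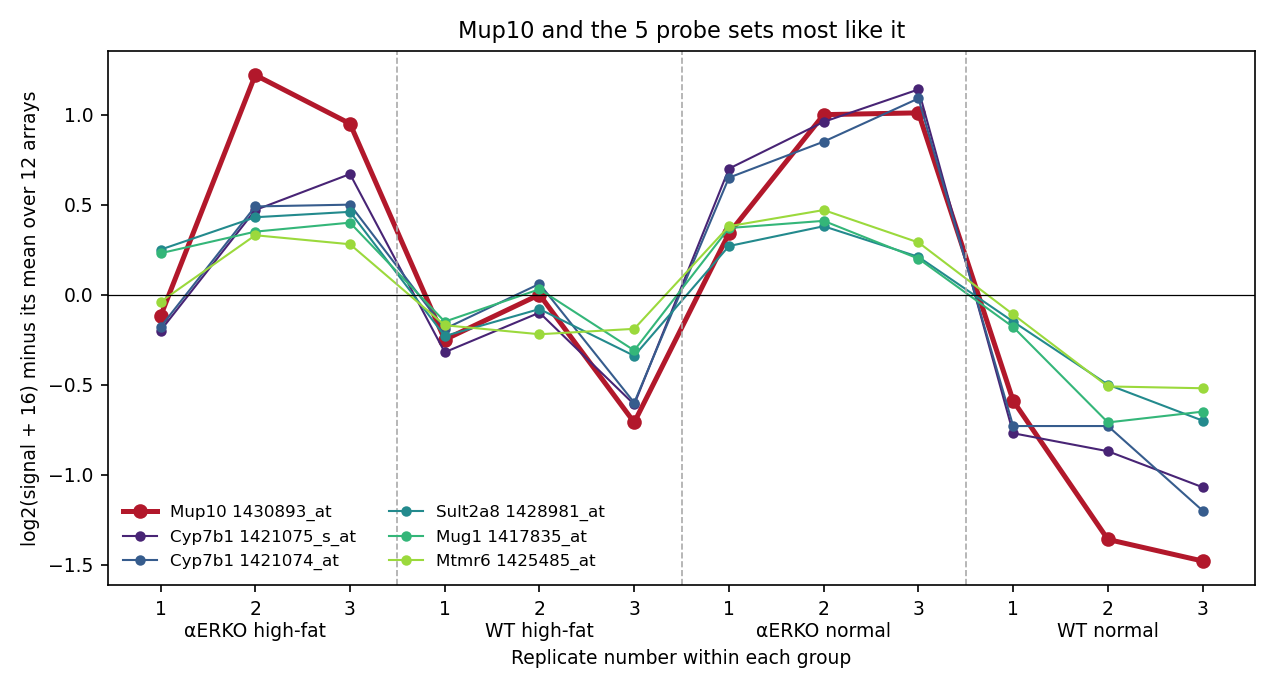
Log2 signal of Mup10 and of the 5 probe sets with the highest Pearson r to it, each centred on its own mean over the 12 libraries, with libraries ordered as αERKO high-fat, WT high-fat, αERKO normal and WT normal. The lines mostly run higher in αERKO than in WT libraries, and within αERKO high-fat livers replicate 1 is the low point for Mup10.

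Male-biased liver genes, the class to which the Mup genes belong, were mostly higher in αERKO livers. These lists were chosen with earlier results of these data known, so their counts are a description. Of 22 tested male-biased genes outside the cluster, 14 were higher and 0 lower on normal diet (0.331% of all probe sets were higher), 10 higher and 0 lower on the high-fat diet (0.728%), and 15 higher and 0 lower for the mean of both diets (1.59%). The median log2 difference for the mean of both diets was 1.13, against -0.06 for all probe sets. Genes above the array median in αERKO libraries alone could enter the test through them. These counts and this median do not set such genes apart, and their direction supports nothing. Cyp4a12a, a fatty acid hydroxylase, differed by 6.20 ± 0.37, Cyp2d9, a steroid hydroxylase, by 3.52 ± 0.10, and Elovl3, a fatty acid elongase, by 3.15 ± 0.14 (adjusted p = 2.09e-07, 5.99e-11 and 9.41e-09 in limma). Nat8 differed by 3.08 ± 0.19, Susd4 by 2.43 ± 0.25 and the complement genes C8b and C9 by 1.16 ± 0.10 and 1.02 ± 0.10. The Mup10 difference of 1.46 ± 0.23 lay within the range of these differences. On each diet the count of higher genes fell without the libraries with acinar transcripts, where WT high-fat replicate 1 stood alone in its group. It also fell on each diet without those with muscle transcripts, where αERKO normal replicate 3 stood alone. For the mean of both diets the list was mostly higher in both of these fits.

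Female-biased genes went the other way. Of 23 tested, 0 were higher and 14 lower on normal diet (0.346% of all were lower), 14 lower on the high-fat diet (0.559%) and 16 lower for the mean of both diets (1.62%), with a median of -1.41. Cyp2b13, a female-specific P450, had a difference of -6.56 ± 0.20 and Sult2a2, a sulfotransferase, one of -7.81 ± 0.55 (adjusted p = 6.57e-11 and 1.36e-06 in limma). Genes above the array median in WT libraries alone could enter the test through them. The counts and the median of this list do not set such genes apart, and their direction supports nothing. Diet called 4 of these 23 in αERKO livers, all higher on the high-fat diet, namely Cyp2b13 by 2.12, Hao2 by 2.04, Slc22a27 by 1.91 and Cyp2b9 by 1.69 (0.118% of all probe sets were higher). No male-biased gene was called for diet in either genotype, and neither was a Mup probe set. For genotype, fewer female-biased genes were lower on the high-fat diet without the libraries with acinar transcripts. Without those with muscle transcripts fewer were lower on each diet. Each of these fits left a library alone in its group.

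**Figure D4:**
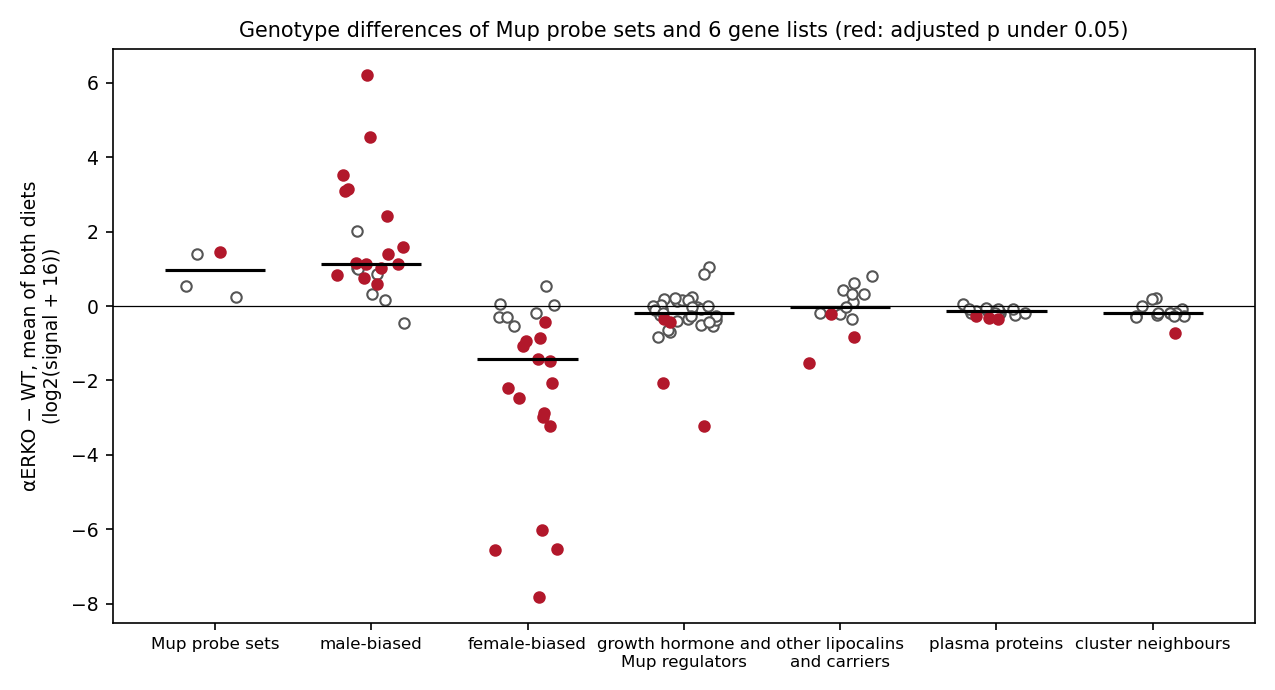
Log2 differences between αERKO and WT livers, averaged over both diets, for the 4 Mup probe sets and each tested gene of 6 lists. Red points passed an adjusted p of 0.05 in limma, and the black line is the median of each column. The Mup column has a median of 0.97 and holds 1427249_x_at, which entered the test only through the αERKO libraries. The male-biased list sits above 0 with a median of 1.13 and the female-biased list below 0 with a median of -1.41, while the medians of the other lists lie between -0.20 and -0.03.

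Among 33 tested genes of growth hormone signalling and known regulators of Mup genes, 0 were higher and 4 lower for the mean of both diets (1.59% of all probe sets were higher and 1.62% lower). The 4 were Esr1 itself (-2.06 ± 0.14), Cux2, a female-biased repressor of male-biased genes in mouse liver (-3.21 ± 0.33, adjusted p = 4.92e-05), Trim24, a nuclear receptor cofactor (-0.44 ± 0.09, adjusted p = 0.0196), and Ppara, the fatty acid receptor (-0.35 ± 0.09, adjusted p = 0.0445 in limma). On each diet alone Esr1 and Cux2 were the 2 called. Cux2 was dim in αERKO livers, with mean log2 signals of 6.05 on the high-fat diet and 6.44 on normal diet. In WT livers these were 9.40 and 9.52. It could enter the test through the WT libraries alone, so its difference supports nothing by its direction. The growth hormone receptor Ghr (0.14 ± 0.06, adjusted p = 0.257), Stat5b (-0.02 ± 0.13) and Zhx2, a factor needed for high Mup expression in adult mouse liver (0.01 ± 0.16, adjusted p = 0.983), did not pass. Bcl6, a male-biased repressor that shares sites with STAT5, had a difference of 0.85 ± 0.34 and was not called. Cux2, Trim24 and Bcl6 also stand on a sex-biased list, so these counts are not separate evidence. For the mean of both diets, 3 genes of this list were lower without the libraries with acinar transcripts and 2 without those with muscle transcripts.

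Of 13 tested genes for other secreted lipocalins and small carriers, 0 were higher, and 3 were lower for the mean of both diets (1.62% of all probe sets were lower), 1 on normal diet (0.346%) and 2 on the high-fat diet (0.559%). The median difference of the 13 was -0.30 on normal diet and 0.18 on the high-fat diet. Apom, the lipocalin of high-density lipoprotein, had a difference of -0.84 ± 0.10, Ptgds, prostaglandin D synthase, -1.54 ± 0.21, and Fabp1, the liver fatty acid binding protein, -0.21 ± 0.05 (adjusted p = 0.000283, 0.000761 and 0.0390 in limma). Rbp4, the retinol carrier of plasma, had -0.22 ± 0.07 (adjusted p = 0.108), and Orm1, an acute phase lipocalin, 0.33 ± 0.17 (adjusted p = 0.329). Without the libraries with acinar transcripts 0 of these genes were lower on either diet alone and 2 for the mean of both diets. Of 21 other plasma proteins 0 were higher and 3 lower for the mean of both diets (1.62% of all probe sets were lower), namely Alb (-0.35 ± 0.07), Ahsg (-0.31 ± 0.06) and Apoa2 (-0.27 ± 0.06), all highly expressed hepatocyte products. Without the libraries with acinar transcripts the count of lower plasma protein genes was 0, and without those with muscle transcripts it was 1.

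The genes on either side of the cluster were followed as a comparison by position. Of the 10 genes before and 10 after it in the RefSeq order, 19 have a probe set and 14 were tested. None was called on either diet alone in limma, and 1 was lower for the mean of both diets (1.62% of all probe sets were lower), Slc31a2, a copper transporter relative (-0.73 ± 0.14, adjusted p = 0.0111). That call was lost without the libraries with acinar transcripts and without those with muscle transcripts. The median of the 14 was -0.19, against -0.06 for all probe sets. Prpf4, a splicing factor (-0.30 ± 0.12, adjusted p = 0.211), and Hsdl2 (-0.26 ± 0.11, adjusted p = 0.250) did not pass in limma.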

How the data were processed

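RNA of 12 female mouse liver samples was labelled with a 3' IVT kit and hybridised to 1 array each, per the labels' protocols. Per the submitters' processing notes, the signals come from MAS5 in Affymetrix Expression Console (their versions are not given in the sources used here). Each array has 1 linear intensity per probe set, the signal, as deposited by the authors. The values show that each array was scaled to a mean of 500 without its lowest and highest 2%. MAS5 treats each array separately, and its dim signals scatter widely on a log scale. The number of arrays limits the precision, and the median standard error of a genotype difference on 1 diet was 0.234. Array medians were 75.6 to 114, and there were 0 identical array pairs.

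Values were log2(signal + 16), which understates differences of dim probe sets. Probe sets above their array's median on at least 3 of 12 arrays were tested (25412). Group means were fitted over all 12 arrays together with limma 3.58.1 in R 4.3.3, with an intensity trend (8 residual and 6.26 prior degrees of freedom). Tests were two-sided, with Benjamini-Hochberg adjustment over all probe sets tested, and a threshold of 0.05, and the fit was tested on simulated data. Separate animals are not stated for the replicates, so a p-value reflects only how far these samples scatter, possibly for technical reasons.

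Symbols came from the platform annotation (34958 probe sets with 1 symbol, 932 with several). All Mup probe sets were named. For gene lists, the brightest single-symbol probe set of a gene was used, and called members were named by smallest p, with a few well-known ones that were not called. For likeness, the 5 highest and 3 lowest r were named. Members, lists and tests were chosen with earlier results of these data known. Deviations of same-numbered replicates correlated at -0.27 to 0.21 (median -0.03, 5 of 18 pairs over 0.1). Those of different-numbered replicates correlated at -0.20 to 0.24 (median 0.02, 7 of 36 pairs over 0.1). The ranges were alike, so the main design holds no block. Alternatives were other pseudocounts, filters, scalings, variance models, samples, and leaving out libraries. Sequences are from RefSeq.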

Additional observations from a re-analysis of the deposited data

How the results depend on the processing

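Mup10, Mup5 and 1427631_x_at were refitted under 23 alternatives and 1427249_x_at under 22, since it fails the filter on all 12 arrays, with 2 settings of pseudocount (1 and 64), 2 of filter, 2 of scaling, no intensity trend, only the groups compared (the same fit for the mean of both diets), the replicate number as a block, and leaving out the libraries with acinar transcripts, those with muscle transcripts or each of 12 libraries in turn. Of 546 refitted differences 27 changed sign and 0 of those were called. On normal diet the count of called Mup probe sets was 0 without an intensity trend (Mup10 1.92, adjusted p = 0.0741), without acinar libraries and without muscle libraries, and 0 to 1 when 1 library was left out. On the high-fat diet it was 0 to 1 when 1 library was left out. For the mean of both diets it was 2 with a pseudocount of 64 or quantile normalization (Mup10 and 1427249_x_at), with the filter on all 12 arrays, median centring or the replicate block (Mup10 and Mup5), and 1 to 2 when 1 library was left out. The block gave Mup5 an adjusted p of 0.0473 and changed no other Mup call, and replicate numbers share only a number. Sign changes, all uncalled and of untested cause, were as follows. Without muscle libraries 1427631_x_at was -0.03 for genotype on the high-fat diet, 1427249_x_at -0.11 for diet in αERKO and the Mup5 interaction 0.08. Without acinar libraries 1427631_x_at was -0.08 for diet in WT and 0.30 for the interaction, 1427249_x_at -0.01 for diet in αERKO and the Mup5 interaction 0.07. The Mup5 interaction was 0.00 with a pseudocount of 64 and with quantile normalization. Leaving out 1 library, 1427631_x_at spanned -0.08 to 0.80 for genotype on normal diet, -0.07 to 0.44 on the high-fat diet, -0.02 to 0.85 for diet in WT and -0.66 to 0.22 for the interaction. 1427249_x_at spanned -0.02 to 0.20 for diet in αERKO and -1.10 to 0.01 for the interaction, Mup10 -0.37 to 0.30 for diet in αERKO, and the Mup5 interaction -0.20 to 0.24. Counts over all probe sets moved by more than 1.5 times, with ranges of 47 to 185 against 172 for genotype on normal diet, 74 to 462 against 327 on the high-fat diet, 188 to 897 against 816 for the mean of both, 9 to 56 against 46 for diet in αERKO, and 0 to 22 against 7 for diet in WT. The lowest of the 3 genotype counts came without muscle libraries on normal diet and for the mean, and without acinar libraries on the high-fat diet; fewer samples enter those fits. Precision is limited by 3 libraries a group, and no probe was checked for which Mup transcripts it binds.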
